A study of Mus musculus with 6 samples.

Results

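A set of 7 C-type lectin genes of mouse, Clec4a1, Clec4a2, Clec4a3, Clec4d, Clec4e, Clec4n and Clec7a, were followed in B cells made to express signalling mutants of the NF-kB pathway. They were chosen by symbol, among genes seen to be higher with an IKK construct than with an empty vector in these same arrays. All 7 were measured, each by 1 feature that the platform annotation assigns to that gene alone, out of 19818 genes with such a feature. The MYD88_L265P group carried a retrovirus with MYD88 L265P, the IKK_K171E group one with IKK K171E, and the EV group the GFP vector without an insert. Each group had 2 arrays, described as biological replicates. All the cells were mature B cells of mouse spleen that had been activated, infected, kept with mitogen for 36 hours, washed, kept for 24 hours without it (anti-CD40 is the stimulus named as withdrawn), and sorted for green fluorescence. The labels give neither the strain, sex and age of the mice nor the subunit of the IKK construct, and do not say whether a replicate came from 1 mouse or several. RNA was hybridised to Affymetrix mouse ST 1.0 arrays, and values are log2 signal, on which a difference of 1 is a 2-fold change.

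C-type lectin receptors of this family are membrane proteins whose outer domain binds sugars or lipids of fungi, bacteria and damaged cells, and they are best known from monocytes, macrophages, dendritic cells and neutrophils. Activating members signal through the tyrosine kinase Syk, either by a motif in their own tail (dectin-1, from Clec7a) or by pairing with the Fc receptor gamma chain (dectin-2, from Clec4n; MCL, from Clec4d; and Mincle, from Clec4e). Syk then acts through the CARD9, BCL10 and MALT1 complex on NF-kB. The DCIR group is typified by Clec4a2, whose product carries an inhibitory motif that recruits phosphatases such as SHP-1.

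The 7 genes lie in 2 places on mouse chromosome 6, with the 6 Clec4 genes in 1 cluster and Clec7a apart from them. Start regions are shown here because genes of this set differed together between the groups. The choice of the genes fixed part of that pattern, and shared regulation was not tested. RefSeq start regions (GRCm38.p6, 250 bases before to 50 after the start) were at hand for 6 of the 7 genes, all but Clec4n. Those of Clec4a3 (the later of its 2 starts, since the other held no match), Clec4d, Clec4e and Clec7a (the lower-numbered of its 2 entries) are set beside that of Clec4b1, a cluster gene outside the set. Capitals mark each GAGGAA, the core of the PU box bound by the myeloid and B cell factor PU.1, on either strand (TTCCTC on the strand shown).
Clec4a3, chr6:122952394-122952693, plus strand: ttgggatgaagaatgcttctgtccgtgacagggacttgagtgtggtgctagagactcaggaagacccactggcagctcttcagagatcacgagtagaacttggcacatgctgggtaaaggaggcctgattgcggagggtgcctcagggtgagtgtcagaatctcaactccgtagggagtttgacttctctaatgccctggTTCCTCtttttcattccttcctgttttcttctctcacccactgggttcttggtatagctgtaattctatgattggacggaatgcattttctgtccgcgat
Clec4d, chr6:123261857-123262156, plus strand: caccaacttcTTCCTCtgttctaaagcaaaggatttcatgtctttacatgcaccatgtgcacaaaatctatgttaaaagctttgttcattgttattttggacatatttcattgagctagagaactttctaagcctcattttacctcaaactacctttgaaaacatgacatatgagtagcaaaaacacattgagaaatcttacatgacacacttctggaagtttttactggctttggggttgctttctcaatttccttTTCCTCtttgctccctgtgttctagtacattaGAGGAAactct
Clec4e, chr6:123289822-123290121, minus strand: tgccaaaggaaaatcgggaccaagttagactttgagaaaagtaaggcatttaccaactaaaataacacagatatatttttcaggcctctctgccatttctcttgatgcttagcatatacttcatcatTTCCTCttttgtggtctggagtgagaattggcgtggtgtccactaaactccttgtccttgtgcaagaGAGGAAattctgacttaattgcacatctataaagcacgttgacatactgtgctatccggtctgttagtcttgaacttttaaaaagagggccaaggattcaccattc
Clec7a, chr6:129472730-129473029, minus strand: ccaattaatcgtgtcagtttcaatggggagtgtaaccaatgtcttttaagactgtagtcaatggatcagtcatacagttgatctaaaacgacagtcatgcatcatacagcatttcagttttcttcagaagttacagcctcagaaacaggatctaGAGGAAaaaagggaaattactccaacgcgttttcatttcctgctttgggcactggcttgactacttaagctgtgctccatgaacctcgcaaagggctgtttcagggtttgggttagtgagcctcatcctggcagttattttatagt
Clec4b1, chr6:123049712-123050011, plus strand: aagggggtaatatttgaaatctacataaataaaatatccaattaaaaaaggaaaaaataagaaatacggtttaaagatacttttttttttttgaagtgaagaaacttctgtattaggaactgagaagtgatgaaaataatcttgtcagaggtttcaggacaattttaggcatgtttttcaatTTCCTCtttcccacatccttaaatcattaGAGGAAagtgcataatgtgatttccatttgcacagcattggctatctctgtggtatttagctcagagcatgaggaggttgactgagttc
A PU box was found in 5 of the 6 genes, all but Clec4a2, and in both neighbouring lectin genes with a start region, Clec4b1 and Clec4b2. Of all 27025 genes with a start region, 31.3% had it. The element was picked after the sequences had been read, and a match describes letters, not binding. Other motifs were searched on both strands, with overlaps between motifs allowed. A loose NF-kB site (GGG and CC with any 5 bases between them) was in 1 of the 6 (Clec4a1), against 53.5% of all genes. TTNNGNAA, a loose C/EBP site, was in 3, against 44.1%. TGANTCA, the AP-1 site, was in 1 (Clec4a2), against 8.97%. An interferon response element (GAAA, any 2 bases, GAAA) was in 1 (Clec4d), against 3.99%, and also in Clec4b1.

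Array medians ran from 8.03 to 8.13, replicate arrays correlated across features at 0.989 to 0.995, and arrays of different groups at 0.967 to 0.990. Myd88, a check of the constructs, stood 2.96 higher on the log2 scale in MYD88_L265P than in EV (SE 0.11, limma adjusted p = 2.81e-04). Ikbkb, the gene of IKK beta, read 11.35 and 10.68 in IKK_K171E, against 9.98 and 10.22 in EV, a difference of 0.91 that missed the threshold (limma adjusted p = 0.0848). IKK_K171E replicate 1, which held more Ikbkb, also had the higher value of 5 of the 7 lectin genes, all but Clec4a1 and Clec4a3. Whether the lectin values followed Ikbkb was not tested. The mean of the monocyte and macrophage markers, listed below, was 9.18 in IKK_K171E replicate 2 and also higher, at 9.39, in replicate 1. Without that array 0 of 21542 features passed in IKK_K171E over EV by limma (2355 at an unadjusted p below 0.05), so each call named below for that comparison ended without it.

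The DCIR-type genes were lowest with the empty vector, intermediate with MYD88_L265P and highest with IKK_K171E. Clec4a3 read 8.03 and 8.05 in MYD88_L265P, 9.22 and 9.54 in IKK_K171E, and 6.65 and 7.37 in EV. No array of one group reached the range of another, and the gap between MYD88_L265P and IKK_K171E was wider than the spread within any group. Clec4a1, a close relative, read 7.85 and 7.40 in MYD88_L265P, 8.48 and 8.49 in IKK_K171E, and 6.34 and 7.01 in EV. Again the arrays of the 3 groups did not overlap. Clec4a2, the gene of the inhibitory receptor DCIR, read 6.71 and 6.51 in MYD88_L265P, 7.40 and 6.88 in IKK_K171E, and 5.91 and 6.22 in EV. Its order was the same, with narrower gaps: the lower IKK_K171E array stood 0.17 above the higher MYD88_L265P array. EV replicate 1 was the lowest of the 6 arrays for all 3 genes.

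The genes whose products pair with the Fc receptor gamma chain split into Clec4n on one side and Clec4d and Clec4e on the other. Clec4n, which encodes dectin-2, a receptor for fungal mannans, read 8.68 and 8.44 in MYD88_L265P, 9.89 and 9.22 in IKK_K171E, and 7.77 and 7.48 in EV. The 3 groups were separate and in the same order as for the DCIR-type genes. Clec4d, which encodes MCL, a partner of Mincle, read 7.93 and 7.68 in MYD88_L265P, 8.90 and 8.62 in IKK_K171E, and 7.61 and 7.58 in EV. The 4 arrays of MYD88_L265P and EV lay within 0.35 of each other without overlap, and both IKK_K171E arrays stood above them. Clec4e, which encodes Mincle, a receptor for mycobacterial cord factor, read 8.40 and 8.91 in MYD88_L265P, 9.92 and 9.54 in IKK_K171E, and 8.47 and 8.38 in EV. Here the MYD88_L265P and EV arrays overlapped, and the IKK_K171E arrays were again above both.

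Clec7a, which encodes dectin-1, the receptor for fungal beta-glucan, read 8.91 and 8.75 in MYD88_L265P, 9.88 and 9.22 in IKK_K171E, and 7.90 and 8.56 in EV. The groups were separate, but the higher EV array lay only 0.19 below the lower MYD88_L265P array, so these neighbours in the order were closer than the EV replicates were to each other. In bulk RNA, more cells with a transcript and more transcript per cell cannot be told apart, for any of the 7 genes. The arrays give no detection calls, so low signal of a gene in EV was not separated from background. Clec4a1, Clec4a2 and Clec4a3 belong to a family of similar sequences, and cross-hybridisation between them was not tested.

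**Figure D1:**
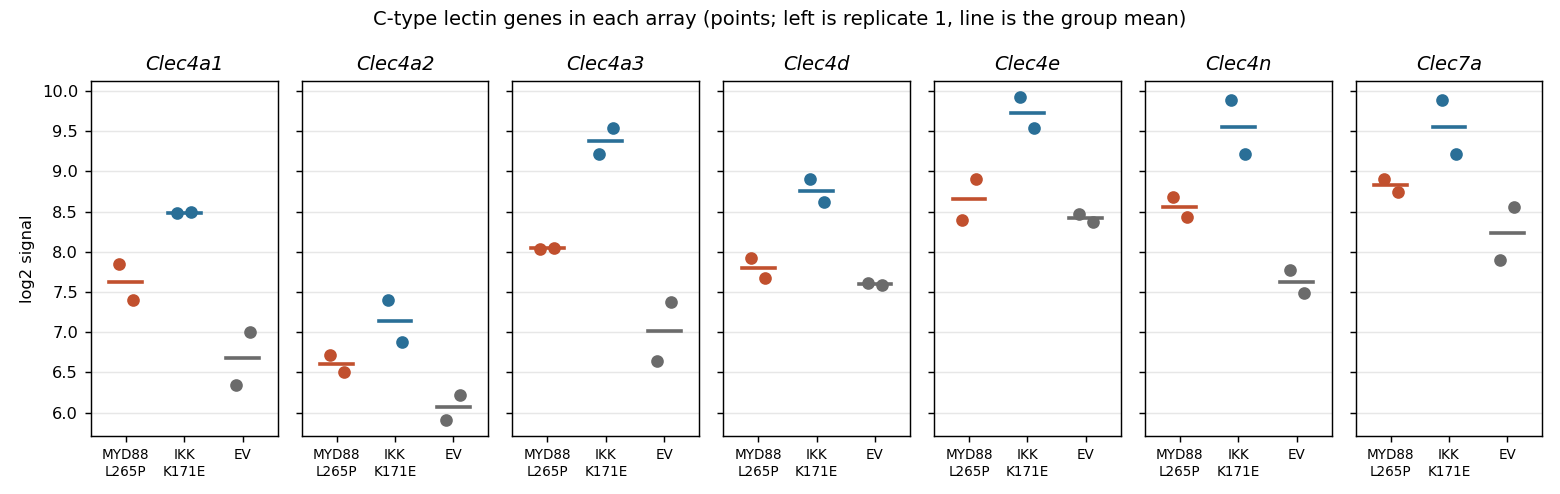
Log2 signal of the 7 lectin genes (1 panel each) in the MYD88_L265P, IKK_K171E and EV arrays. Points are arrays and lines are group means (n = 2). The IKK_K171E points are highest in each panel, and the MYD88_L265P points lie above the EV points except for Clec4e.

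In MYD88_L265P against EV, 3 of the 7 genes rose and 4 did not pass. Clec4a3 rose by 1.03 on the log2 scale (SE 0.22, limma adjusted p = 0.0261), Clec4a1 by 0.95 (SE 0.23, limma adjusted p = 0.0332) and Clec4n by 0.93 (SE 0.22, limma adjusted p = 0.0323). Clec7a differed by 0.60 (SE 0.26), Clec4a2 by 0.54 (SE 0.19), Clec4e by 0.23 (SE 0.19) and Clec4d by 0.21 (SE 0.13), with limma adjusted p-values from 0.0829 to 0.378. Of all features tested 9.32% were called higher in this comparison (2007 higher and 1579 lower, or 2584 and 753 with arrays set to a common median). The EV arrays also served to choose the genes, so these tests are not fully independent of the choice. Both MYD88_L265P arrays were above both EV arrays for 6 of the 7, against 23.2% of all features. The median of the 7 log2 fold changes was 0.60, beside -0.11 over all features. All 3 calls ended without either MYD88_L265P array, with 4 of the 7 then at an unadjusted p below 0.05. The call of Clec4a1 also ended without EV replicate 1 (0.62, limma adjusted p = 0.0675) and without either IKK_K171E array (0.95, limma adjusted p = 0.0561), and that of Clec4n without EV replicate 2 (0.79, limma adjusted p = 0.118). Without EV replicate 1 the change of Clec4a3 was 0.67 and the difference of Clec7a 0.27, which was 0.93 without EV replicate 2. Without MYD88_L265P replicate 1 Clec4d differed by 0.08 and Clec4e by 0.49, and without MYD88_L265P replicate 2 by 0.33 and -0.02. Clec4a2 passed without either IKK_K171E array (limma adjusted p = 0.0499).

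The contrast of IKK_K171E with EV chose the genes, so its values are a description. The log2 differences were 2.37 for Clec4a3, 1.93 for Clec4n, 1.81 for Clec4a1, 1.32 for Clec7a, 1.31 for Clec4e, 1.16 for Clec4d and 1.07 for Clec4a2, with SE from 0.13 to 0.26. These are 5.17-fold for the highest and 2.10-fold for the lowest. Of the 7, 6 met the threshold, all but Clec7a. Of all features 0.956% were called higher in this contrast, and nothing is read from the members' share, which the choice fixed. The median was 1.32, beside -0.04 over all features. The comparison shares its EV arrays with that of MYD88_L265P, and set side by side the difference was larger with IKK_K171E for each gene. The largest distance was at Clec4a3 (1.03 with MYD88_L265P and 2.37 with IKK_K171E), and the smallest at Clec4a2 (0.54 and 1.07).

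Directly between the constructs, the 7 genes were lower in MYD88_L265P than in IKK_K171E by 0.53 (Clec4a2) to 1.34 (Clec4a3) on the log2 scale, which is 1.44-fold to 2.53-fold higher in IKK_K171E. Both MYD88_L265P arrays lay below both IKK_K171E arrays for 7 of 7, against 36.1% of all features. For 6 of the 7 they also lay above both EV arrays, a position held by 0.901% of all features. The choice of the genes placed the IKK_K171E arrays above EV, so these counts carry no test. Without IKK_K171E replicate 1, MYD88_L265P minus IKK_K171E was -0.27 for Clec4a2, against -0.53 with all arrays, -0.39 for Clec7a, against -0.72, and -0.66 for Clec4n. The genes varied together over the 6 arrays, a pattern that their choice fixed in part. The correlation of each with the mean of the other 6 ran from 0.884 (Clec4e) to 0.965 (Clec4a2), as a description of arrays in 3 groups.

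**Figure D2:**
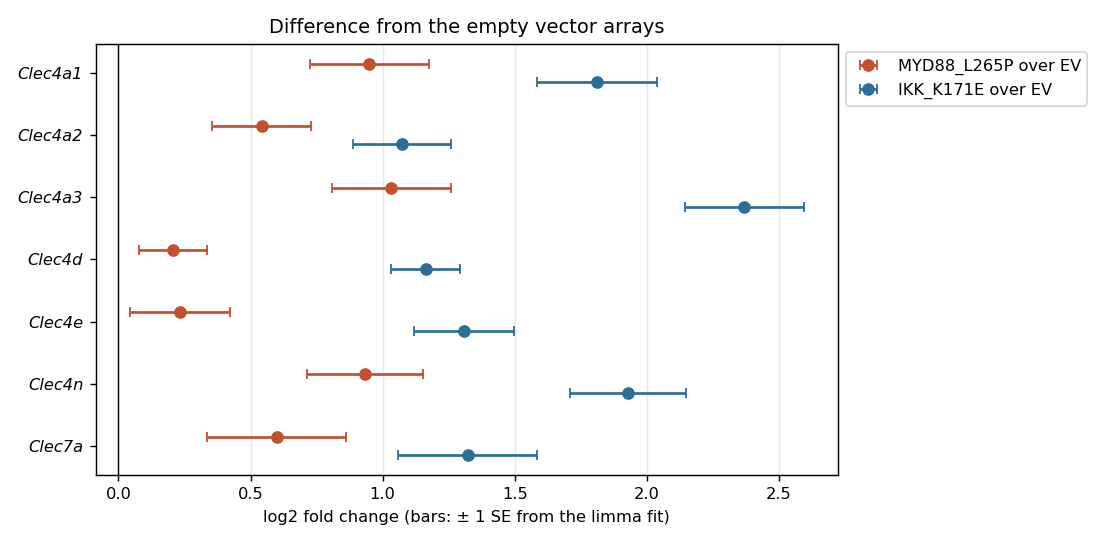
Log2 fold change against EV of the 7 lectin genes in MYD88_L265P and IKK_K171E, with bars of 1 SE from the limma fit (n = 2 arrays per group). Clec4d and Clec4e lie near 0 in MYD88_L265P (0.21 and 0.23) and above 1 in IKK_K171E.

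The lectin genes interleaved with the set in the cluster, which the choice had left out, passed in no comparison. In the Clec4 cluster the order of measured genes is Clec4a1, Clec4a3, Clec4a4, Clec4b1, Clec4a2, Clec4b2, Clec4n, Clec4d and Clec4e. Clec4a4, the gene of the DCIR relative DCIR2, read 5.27 and 5.27 in MYD88_L265P, 5.24 and 5.46 in IKK_K171E, and 5.02 and 5.07 in EV. Clec4b1, the gene of the activating receptor DCAR, read 5.01 and 5.24 in MYD88_L265P, 5.33 and 5.30 in IKK_K171E, and 5.33 and 5.35 in EV. Clec4b2 read 6.19 and 6.26 in MYD88_L265P, 6.39 and 6.43 in IKK_K171E, and 6.34 and 5.92 in EV. None of these 3 was called in any comparison, with log2 fold changes from -0.21 to 0.23 in MYD88_L265P and from -0.02 to 0.30 in IKK_K171E over EV. Whether signal this low stood above background was not tested.

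Of 43 other measured genes within 500 kb of the set, 3 rose and 4 fell in MYD88_L265P over EV, and 2 rose and 0 fell in IKK_K171E over EV. Of all features, 9.32% were called higher and 7.33% lower in MYD88_L265P over EV, and 0.956% and 0.413% in IKK_K171E over EV. Apobec1, the cytidine deaminase gene beside the Clec4 cluster, rose in both, by 0.68 (limma adjusted p = 0.0127) in MYD88_L265P and by 0.69 (limma adjusted p = 0.0423) in IKK_K171E. Clec12a, near Clec7a, which encodes an inhibitory receptor for uric acid crystals, rose by 1.20 (limma adjusted p = 0.00655, and 0.0527 without MYD88_L265P replicate 2) in MYD88_L265P and by 0.94 (limma adjusted p = 0.0412) in IKK_K171E. Clec12b, Clec1b, Clec9a and Clec1a, which stand between Clec12a and Clec7a, were not called. Their log2 fold changes lay between -0.23 and 0.15 in MYD88_L265P and between -0.11 and 0.44 in IKK_K171E. C3ar1, the receptor gene for complement C3a, read 9.86 and 9.55 in MYD88_L265P, 10.83 and 9.83 in IKK_K171E, and 9.16 and 9.67 in EV, and was not called. Klra17 was called higher in MYD88_L265P (0.76), and Foxj2 (-0.63), Slc2a3 (-0.50), Nanog (-0.38) and Klrd1 (-1.16) lower. The MYD88_L265P calls of Apobec1, Foxj2, Slc2a3, Nanog and Klrd1 ended without either MYD88_L265P array and that of Klra17 without MYD88_L265P replicate 1, those of Klra17, Foxj2, Slc2a3 and Nanog without EV replicate 2, and that of Nanog without EV replicate 1 (limma adjusted p from 0.0564 to 0.218). The IKK_K171E call of Apobec1 was also lost with EV replicate 2, IKK_K171E replicate 2 or either MYD88_L265P array removed (0.0582 to 0.117).

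**Figure D3:**
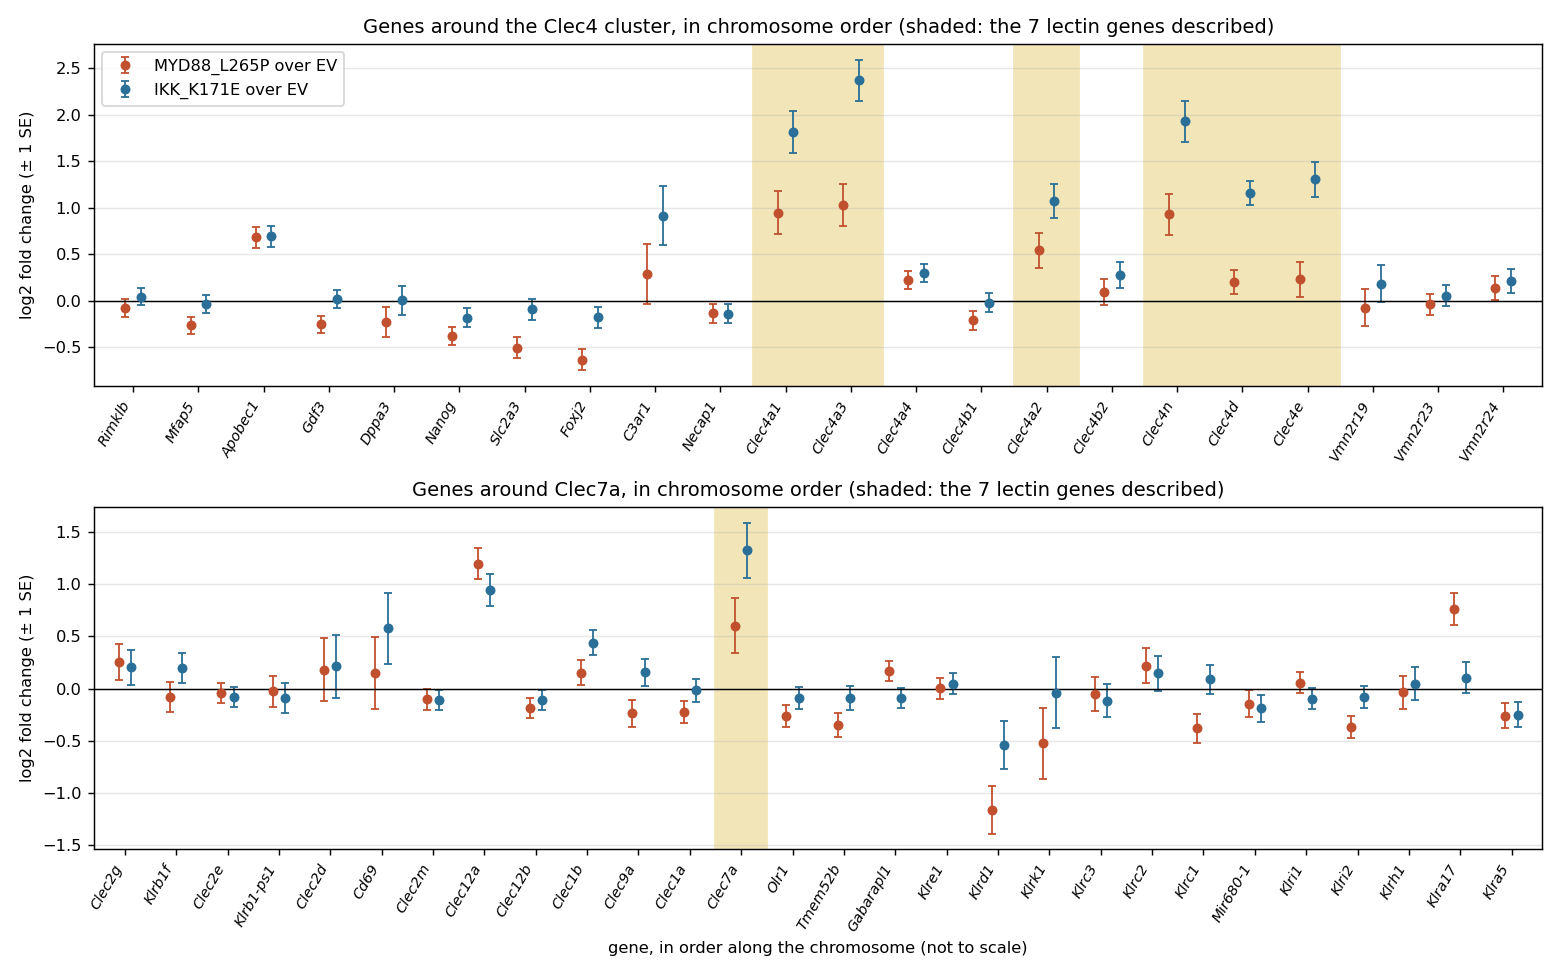
Log2 fold change against EV, with bars of 1 SE, of the measured genes within 500 kb of the 7 lectin genes, in chromosome order and not to scale. The shaded genes are the 7 described. Clec4a4, Clec4b1 and Clec4b2 lie near 0 among them, and Apobec1 and Clec12a are above 0 with both constructs.

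Across 45 measured C-type lectin genes outside the set, 1 was called higher and 4 lower in MYD88_L265P over EV, and 3 higher and 1 lower in IKK_K171E over EV. The medians of the 45 were -0.18 and 0.01. Of all features, 9.32% were called higher and 7.33% lower in MYD88_L265P over EV, and 0.956% and 0.413% in IKK_K171E over EV. Clec5a, an activating receptor gene of myeloid cells that signals through DAP12, read 6.54 and 6.61 in MYD88_L265P, 7.44 and 7.37 in IKK_K171E, and 6.32 and 6.36 in EV. It rose by 1.06 in IKK_K171E over EV (limma adjusted p = 0.00769), not in MYD88_L265P over EV (0.23), and was 0.83 lower in MYD88_L265P than in IKK_K171E (limma adjusted p = 0.0106). Clec10a, a galactose-binding receptor gene of macrophages and dendritic cells, rose by 0.69 in IKK_K171E over EV (limma adjusted p = 0.0383), and it was 0.79 lower in MYD88_L265P than in IKK_K171E (limma adjusted p = 0.0196). Clec12a, above, was the 1 called higher in both. Between the constructs 5 of the 45 were lower in MYD88_L265P and 0 higher, also 0 higher at an unadjusted p below 0.05 by limma, where 0.873% of all features were called higher and 0.877% lower.

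Among lectin genes known from B cells, Cd72 fell with both constructs. Cd72, an inhibitory co-receptor of the B cell receptor, fell by 1.37 in MYD88_L265P (limma adjusted p = 0.00348) and by 0.69 in IKK_K171E (limma adjusted p = 0.0458) against EV. Fcer2a, the low-affinity IgE receptor CD23, fell by 1.81 in MYD88_L265P (limma adjusted p = 0.0283), and was 1.08 above EV in IKK_K171E, which did not pass. Clec2i fell by 1.13 in MYD88_L265P (limma adjusted p = 0.00922). The falls of Fcer2a and Clec2i ended without either MYD88_L265P array (limma adjusted p from 0.0623 to 0.149), and that of Fcer2a also without either IKK_K171E array (0.0501), whereas that of Cd72 was kept. Without EV replicate 2 Fcer2a fell by 1.10. The calls of Clec10a, Clec12a and Cd72 in IKK_K171E over EV were lost when EV replicate 2 was removed (limma adjusted p = 0.107, 0.0507 and 0.135) or either MYD88_L265P array (0.0973, 0.0730 and 0.109). That of Clec12a was also lost when EV replicate 1 (0.0647) or IKK_K171E replicate 2 (0.0893) was removed. That of Clec5a was lost only with IKK_K171E replicate 1 removed. In MYD88_L265P over IKK_K171E, the calls of Clec5a and Clec10a were lost with any of the 4 arrays compared removed (limma adjusted p from 0.0554 to 0.194).

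Of 30 measured signalling components downstream of these receptors, Fcer1g was the 1 that rose in either construct against EV. Over all features, 9.32% were called higher in MYD88_L265P over EV and 0.956% in IKK_K171E over EV. Fcer1g encodes the Fc receptor gamma chain, the partner of dectin-2, MCL and Mincle. It read 10.07 and 10.02 in MYD88_L265P, 10.46 and 10.50 in IKK_K171E, and 8.87 and 9.09 in EV. The arrays of the 3 groups did not overlap and stood in the order seen for Clec4n. Fcer1g rose by 1.06 in MYD88_L265P (SE 0.10, limma adjusted p = 0.00425) and by 1.50 in IKK_K171E (SE 0.10, limma adjusted p = 0.00612). MYD88_L265P minus IKK_K171E was -0.44, which did not pass (limma adjusted p = 0.0915). The MYD88_L265P call was kept without each array in turn, and the IKK_K171E call ended without IKK_K171E replicate 1 (1.52, limma adjusted p = 0.0930).

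Tyrobp, the gene of DAP12, the adaptor of Clec5a and other myeloid receptors, read 9.92 and 9.63 in MYD88_L265P, 10.88 and 10.77 in IKK_K171E, and 10.37 and 10.17 in EV. It fell by 0.49 in MYD88_L265P over EV (limma adjusted p = 0.0425), differed by 0.55 in IKK_K171E (limma adjusted p = 0.0886), and was 1.05 lower in MYD88_L265P than in IKK_K171E (limma adjusted p = 0.0168). The fall against EV ended without any 1 of the 6 arrays (-0.35 to -0.64, limma adjusted p from 0.0581 to 0.210), and the difference between constructs without either IKK_K171E array or MYD88_L265P replicate 2 (0.0650 to 0.138). Hcst, the gene of the adaptor DAP10, differed by -0.09 and -0.18 in MYD88_L265P and IKK_K171E.

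The shared core of the pathway, 4 genes named here after their values were seen, gave no call above EV. Syk, the kinase gene, had log2 fold changes of -0.17 in MYD88_L265P and -0.37 in IKK_K171E over EV, Card9 of -0.29 and -0.10, and Bcl10 of -0.26 and -0.28, and none was called. Malt1 fell by 0.51 in MYD88_L265P (limma adjusted p = 0.0138) and had -0.24 in IKK_K171E. Of the 30, 10 fell in MYD88_L265P and 0 in IKK_K171E over EV by limma (10 at an unadjusted p below 0.05). The 10 included Ptpn6 (-0.66), the gene of the phosphatase SHP-1 that inhibitory receptors recruit, Inpp5d (-0.69), the gene of the lipid phosphatase SHIP1, and Vav3 (-0.63), a guanine exchange factor gene. Most of these genes also serve the B cell receptor. The falls of Malt1, Ptpn6 and Inpp5d ended without either MYD88_L265P array, that of Vav3 without MYD88_L265P replicate 2, and that of Malt1 without EV replicate 2 (limma adjusted p from 0.0523 to 0.101). Shares of 7.33% and 0.413% of all features were called lower in these comparisons.

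Genes that dectin signalling is known to induce in myeloid cells were counted next. Of 22, 5 rose and 4 fell in MYD88_L265P over EV by limma. In IKK_K171E over EV 4 rose and 0 fell (1 lower at an unadjusted p below 0.05 by limma). Of all features, 9.32% were called higher and 7.33% lower in MYD88_L265P over EV, and 0.956% and 0.413% in IKK_K171E over EV. The constructs are themselves mutants of the NF-kB pathway, and the part of dectin signalling in these changes was not tested. Il1b, the interleukin-1 beta gene, read 8.23 and 8.46 in MYD88_L265P, 9.38 and 9.57 in IKK_K171E, and 7.81 and 8.09 in EV. It rose by 1.52 in IKK_K171E over EV (limma adjusted p = 0.00906), and stood in the same order as the DCIR-type lectin genes. Il12b, the shared subunit gene of IL-12 and IL-23, rose by 0.80 (limma adjusted p = 0.0327) and Nlrp3, an inflammasome sensor gene, by 0.57 (limma adjusted p = 0.0401) in IKK_K171E over EV. Both read near the EV level in MYD88_L265P (-0.09 and -0.12). Tnfaip3, the gene of the NF-kB inhibitor A20, rose by 0.53 in MYD88_L265P (limma adjusted p = 0.0414) and by 1.02 in IKK_K171E (limma adjusted p = 0.0291).

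Other response genes rose with MYD88_L265P and were not called with IKK_K171E. Il10 rose by 1.87 in MYD88_L265P over EV (limma adjusted p = 0.00285), Il6 by 3.07 (limma adjusted p = 0.0122), Ccl3 by 2.15 (limma adjusted p = 0.00712) and Nfkbiz by 0.96 (limma adjusted p = 0.0245). The direct comparison of MYD88_L265P with IKK_K171E passed for Il10 (2.03, limma adjusted p = 0.00340), Ccl3 (1.94, limma adjusted p = 0.0253) and Nfkbiz (1.26, limma adjusted p = 0.0357), not for Il6 (2.42, limma adjusted p = 0.0718). Tnf (-0.47), Il23a (-0.36), Egr2 (-0.82) and Egr3 (-0.41) fell in MYD88_L265P over EV. In IKK_K171E over EV, the calls of Il12b, Nlrp3 and Tnfaip3 ended without either MYD88_L265P array or EV replicate 2 (limma adjusted p from 0.0637 to 0.120), those of Il12b and Nlrp3 without IKK_K171E replicate 2 (0.0513 and 0.0503), and that of Nlrp3 without EV replicate 1 (0.0552). In MYD88_L265P over EV, the calls of Il6 and Nfkbiz ended without either MYD88_L265P array (limma adjusted p from 0.0522 to 0.131), that of Nfkbiz without EV replicate 1 (0.0657), and that of Tnfaip3 without any MYD88_L265P or EV array (0.0957 to 0.202). The 4 falls ended without either MYD88_L265P array (0.111 to 0.184) and EV replicate 2 (0.0535 to 0.139, with Egr2 at -0.48), those of Tnf, Il23a and Egr3 also without EV replicate 1 (0.0656 to 0.0794), and that of Egr2 without either IKK_K171E array (0.0585). In MYD88_L265P over IKK_K171E, the calls of Ccl3 and Nfkbiz ended without any of the 4 arrays (0.0589 to 0.224), and that of Il10 was kept.

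**Figure D4:**
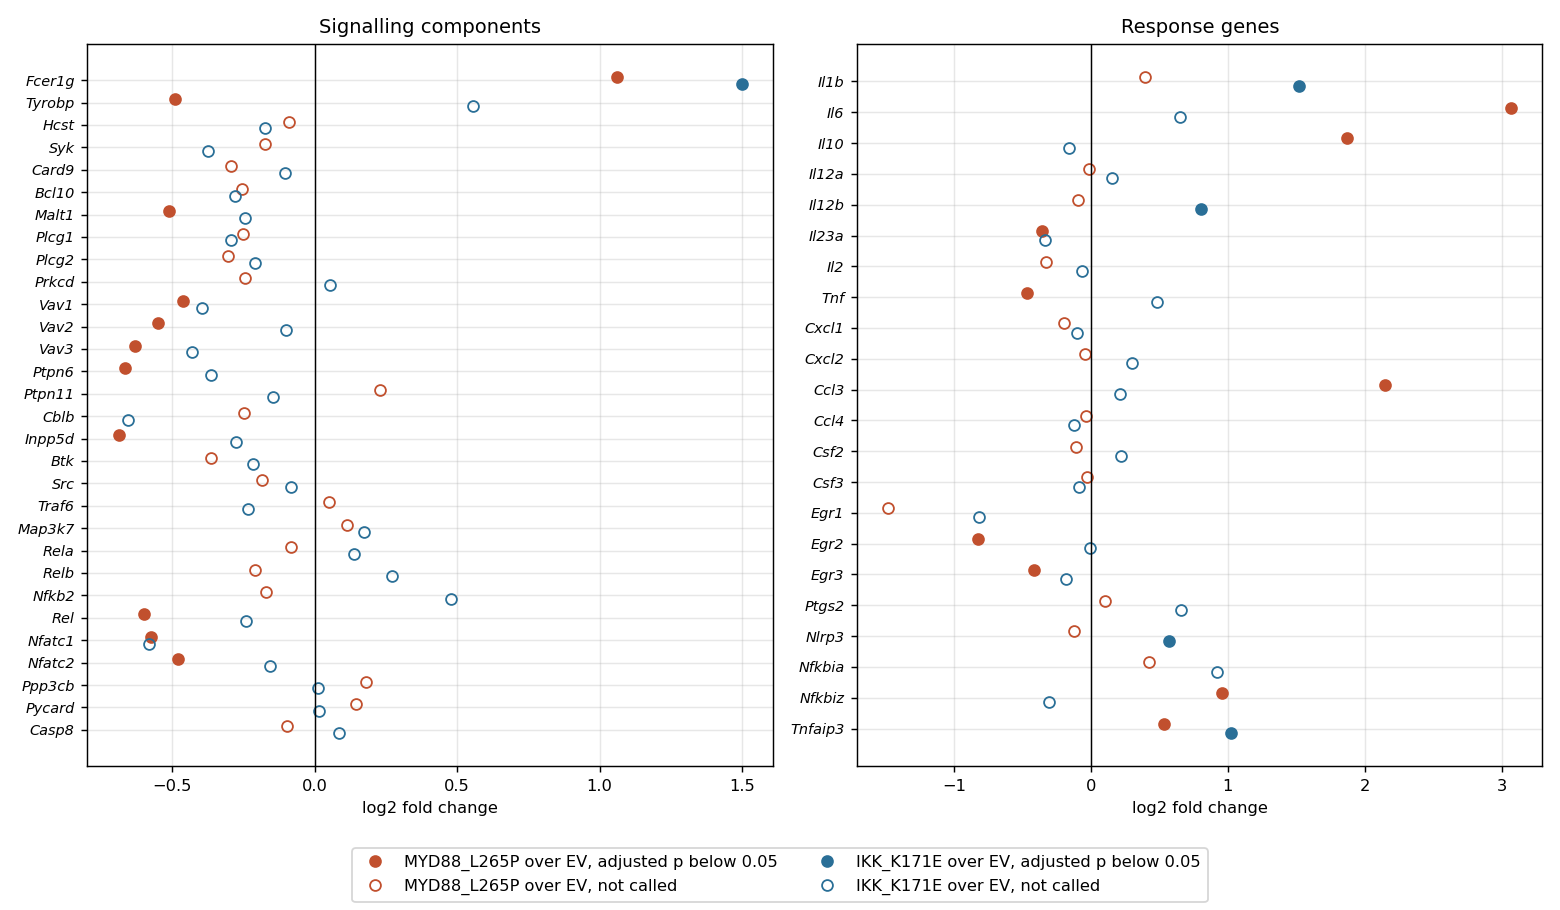
Log2 fold change against EV of measured signalling components (left) and response genes (right) of the dectin pathway. Filled points passed limma at an adjusted p below 0.05 and open points did not. Fcer1g is the only filled point to the right of 0 among signalling components, at 1.06 in MYD88_L265P and 1.50 in IKK_K171E.

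Markers of the cell types that usually carry these lectins were set beside them. As a reference for the counts, 9.32% of all features were called higher and 7.33% lower in MYD88_L265P over EV. The shares in IKK_K171E over EV were 0.956% and 0.413%. B cell markers were bright in all arrays, with Ms4a1 (CD20) at 12.54 to 12.91, and of 9 measured B cell markers 5 fell in MYD88_L265P and 2 (Cd22 and Fcrla) in IKK_K171E over EV, both lost with either MYD88_L265P array removed (limma adjusted p = 0.109 and 0.0502), and that of Cd22 also with either EV array removed (0.0750 and 0.0756). The 5 MYD88_L265P falls (Cd79b, Cd22, Ebf1, Blk and Fcrla) were also lost with either MYD88_L265P array removed (0.0571 to 0.189), those of Ebf1 and Fcrla with either EV array (0.0695 to 0.118), and that of Fcrla with either IKK_K171E array (0.0503). Of 18 monocyte and macrophage markers, 1 rose (Csf1r, 1.22) and 1 fell (Adgre1, -1.17) in IKK_K171E over EV. At an unadjusted p below 0.05 by limma 11 were higher and 1 lower, beside 3675 of 21542 features in either direction. No alternative gave the same count of markers called higher, which ran from 0 to 7. The mean log2 signal over the 18 was 8.80 and 8.69 in MYD88_L265P, 9.39 and 9.18 in IKK_K171E, and 8.71 and 8.87 in EV. The mean differed by 0.49 in IKK_K171E over EV, where 13 of the 18 were above 0 and 11 had both arrays above both EV arrays, against 17.6% of all features. It differed by -0.05 in MYD88_L265P over EV, a mean over 9 of 18 above 0 and values from -1.78 to 0.72, with 0 called higher by limma (1 at an unadjusted p below 0.05) and 1 lower, Adgre1 (-1.78, limma adjusted p = 0.00425). The rise of Csf1r was lost with IKK_K171E replicate 2 removed (limma adjusted p = 0.0503) or either MYD88_L265P array (0.0937), and the IKK_K171E fall of Adgre1 with either EV array or IKK_K171E replicate 2 removed (0.0549 to 0.0755).

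Among the defining genes, Lyz2, the gene of macrophage lysozyme, read 11.94 and 11.70 in MYD88_L265P, 12.96 and 12.89 in IKK_K171E, and 11.09 and 11.95 in EV. Its difference of 1.41 in IKK_K171E over EV was at a limma adjusted p of 0.0501. Msr1, a scavenger receptor gene named after its values were seen, read 9.22 and 8.76 in MYD88_L265P, 10.22 and 9.37 in IKK_K171E, and 8.07 and 8.47 in EV, in the order of the lectin genes, and was not called. Cd14, the lipopolysaccharide co-receptor gene of monocytes, ran from 7.20 to 7.36 over the 6 arrays with no separation of IKK_K171E from EV, and Itgam (CD11b) differed by 0.09 in MYD88_L265P and 0.47 in IKK_K171E, with no call. EV replicate 1, the lowest array for 4 of the 7 lectin genes, was the lowest for 7 of the 18 markers. The lowest mean of the list was in MYD88_L265P replicate 2. In MYD88_L265P over IKK_K171E the mean of the list differed by -0.54, with 0 of the 18 above 0. Both MYD88_L265P arrays lay below both IKK_K171E arrays for 17 of the 18, against 36.1% of all features. By limma 1 was called lower, against 0.877% of all features. At an unadjusted p below 0.05 by limma 10 were lower, beside 4221 of 21542 features in either direction. The part of such cells in the difference between IKK_K171E and EV, or between the constructs, was not tested.

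The counts of the next lists stand beside 9.32% of all features called higher and 7.33% lower in MYD88_L265P over EV. In IKK_K171E over EV the shares were 0.956% and 0.413%. Of 15 dendritic cell markers 3 rose in IKK_K171E over EV, Itgax (CD11c, 0.68), Flt3 (0.75) and Fscn1 (1.43), and 2 fell, Ccr7 (-0.63) and Irf8 (-0.84). Except for Fscn1, these calls were lost with either MYD88_L265P array removed. Those of Itgax, Flt3 and Ccr7 were also lost without EV replicate 2, and those of Ccr7 and Irf8 without EV replicate 1. That of Irf8 was lost without IKK_K171E replicate 2 as well. In MYD88_L265P over EV 1 rose, Ccr9 (1.49), and 3 fell, among them Flt3 (-0.88; limma adjusted p = 0.0517 without MYD88_L265P replicate 2). Of 13 neutrophil, 11 T cell, 10 NK cell and 8 mast cell and basophil markers, 0 passed in IKK_K171E over EV by limma. At an unadjusted p below 0.05 by limma, 3, 1, 5 and 1 of them were higher and 0, 0, 1 and 0 lower. That level was reached by 3675 of 21542 features in either direction. In MYD88_L265P over EV 0 of these markers rose, also 0 at an unadjusted p below 0.05, and 1, 3, 2 and 0 fell. There 8342 of 21542 features had an unadjusted p below 0.05 by limma in either direction. Tfrc, which encodes the receptor for iron-loaded transferrin, was the 1 of 7 erythroid and platelet markers called, higher in MYD88_L265P (1.68) and in IKK_K171E (1.28). Its calls were lost with either MYD88_L265P array removed, and that in IKK_K171E also without EV replicate 2 (1.05).

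**Figure D5:**
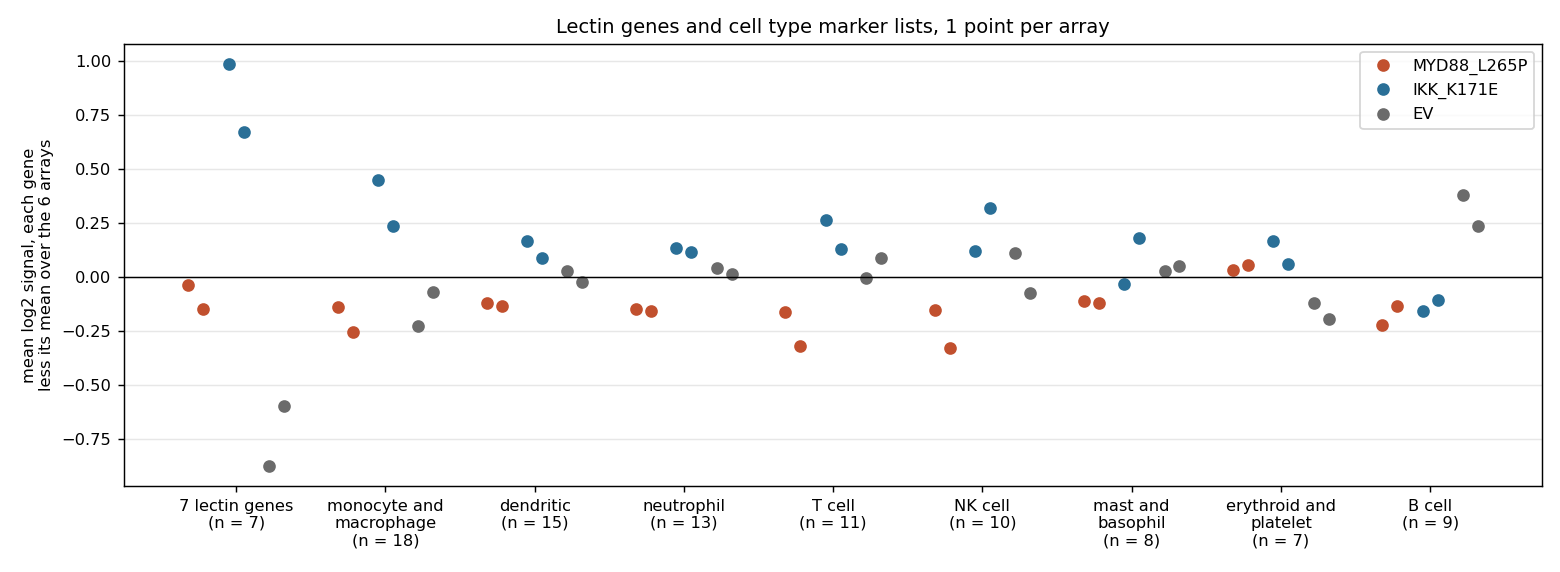
Mean log2 signal of the 7 lectin genes and of each list of cell type markers, 1 point per array, with each gene set to its mean over the 6 arrays. The lectin genes span -0.88 to 0.99, and the monocyte and macrophage markers -0.26 to 0.45 with only the IKK_K171E arrays above 0.

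The features most like the lectin genes over the 6 arrays were Lilr4b, Fyb, Rras2, Fnbp1l, Tfec, Pilra, Aoah, Ifi205, Cpne2 and Igsf6. Their Pearson correlation with the mean of the 7 genes ran from 0.973 to 0.991 over 6 arrays, among features with an SD of at least 0.5. The arrays fall into 3 groups and the choice of the 7 genes fixed part of the pattern, so these values are a description. Lilr4b, a leukocyte immunoglobulin-like receptor gene, read 10.21 and 9.73 in MYD88_L265P, 11.19 and 10.87 in IKK_K171E, and 9.05 and 9.29 in EV. Aoah, the gene of an enzyme that inactivates lipopolysaccharide, read 7.72 and 7.80 in MYD88_L265P, 8.41 and 8.09 in IKK_K171E, and 7.09 and 7.22 in EV. Pilra, a gene of an inhibitory paired receptor, read 8.15 and 8.21 in MYD88_L265P, 9.25 and 9.06 in IKK_K171E, and 7.54 and 7.44 in EV. All 10 shared the order of EV lowest, MYD88_L265P intermediate and IKK_K171E highest in their group means.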

How the data were processed

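Log2 expression per feature was deposited for 6 arrays (3 groups of 2). The authors' processing notes name oligo and limma without versions. Background correction, normalization, summarisation and genome build are not given in the sources used here. Deposited values, from 2.55 to 14.5, were used unchanged. Of 24743 features, 21542 with exactly 1 gene symbol in the platform annotation were tested, 1522 with several and 1679 with none were not. A linear model of group means was fitted to all 6 arrays with limma 3.58.1 in R 4.3.3 (empirical Bayes, 3 residual and 4.17 prior degrees of freedom), and two-sided p-values of 3 comparisons had a Benjamini-Hochberg adjustment across the tested features, with a threshold of 0.05. The procedure was tested on simulated data. Each gene of a list was represented by its brightest feature. P-values set a difference of group means against the spread between arrays within groups, pooled over the 3 groups and moderated across features. The number of arrays limits the precision.

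The 7 genes and the lists (205 genes in 12 lists, the 7 included) were chosen with earlier results of these data known. Genes named were the 7, called members of the lists (up to 5 in each direction), the first 3 measured members of each list, of which those with no result to show are left out, genes within 500 kb of the 7 in RefSeq, and the 10 features most correlated with them. Outside these rules, Myd88 and Ikbkb were named as a check of the constructs. Syk, Card9, Bcl10, Malt1 and Msr1 were added after their values were seen. Names in RefSeq matched for 7 of 7 lectin genes. The alternatives were a replicate block, quantile or median scaling, other variance models, array weighting, removal of dim features, use of every feature, only the 4 arrays compared, a mean over the features of a gene, and each array left out.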

Additional observations from a re-analysis of the deposited data

How the results depend on the processing

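The 7 lectin genes kept the direction of their differences in IKK_K171E over EV and in MYD88_L265P over IKK_K171E under all 15 alternatives (14 for Clec4a2, which the filter on low signal removed). In MYD88_L265P over EV the exception was Clec4e, at -0.02 without MYD88_L265P replicate 2. The number of the 7 called higher there was 3 under each alternative that kept all arrays of both groups, and 0 to 3 with an array left out. Over all features, the counts with an array left out were 191 to 3554 in MYD88_L265P over EV (3586 with all arrays), 0 to 506 in IKK_K171E over EV (295) and 14 to 592 in MYD88_L265P over IKK_K171E (377). In IKK_K171E over EV the count was 626 with the replicate block, 123 with array weights, 131 with all features of the table and 51 with only the 4 arrays compared, which gave 592 in MYD88_L265P over IKK_K171E. The cause was not tested, other than the fewer arrays. The replicate numbers of the descriptions are not those of the titles, and nothing says that a number marks a shared source. Same-numbered arrays deviated together only weakly (correlations of 0.105 to 0.211 across features), so the replicate block was kept as an alternative, and it changed no call of the 7 genes in MYD88_L265P over EV and ended 2 of 95 calls of listed or neighbouring genes outside the set. A common median for all arrays moved the share of higher calls in MYD88_L265P over EV to 77.4%, against 56.0%, and in MYD88_L265P over IKK_K171E to 66.2%, against 49.9%. Of the 95, it ended 17, among them the falls of Tyrobp, Tnf, Il23a, Egr2, Ebf1, Fcrla and Nanog in MYD88_L265P over EV and of Cd72 and Irf8 in IKK_K171E over EV. Quantile normalization ended 10, among them Il23a, Nanog and Tnfaip3 in MYD88_L265P over EV, Cd72 in IKK_K171E over EV and Nfkbiz between the constructs. Array weights ended 12, all in IKK_K171E over EV (Apobec1, Clec10a, Clec12a, Cd72, Nlrp3, Csf1r, Adgre1, Flt3, Ccr7, Irf8, Tfrc and Cd22). All features of the table ended 21, namely those 12 without Flt3, Tyrobp, Tnfaip3, Nanog and Cd3g in MYD88_L265P over EV, and 6 between the constructs. Over the alternatives the lectin genes outside the set called higher in IKK_K171E over EV numbered 0 to 4 (3 in the fit reported), response genes 0 to 6 (4), and monocyte and macrophage markers 0 to 7 (1). Signalling genes called lower in MYD88_L265P over EV numbered 0 to 11 (10). With 2 arrays per group, and no detection calls, differences at the signal level of Clec4a4 and Clec4b1 could not be judged.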
